A study of Mus musculus with 2 samples.

Results

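The 7 genes described here belong to the fibroblast growth factor (FGF) system of the mouse eye. They are the ligand genes Fgf1, Fgf2 and Fgf9, the receptor genes Fgfr1, Fgfr2 and Fgfr3, and Fgf2os, a noncoding gene on the opposite strand to Fgf2. They were taken by symbol from the feature table of the expression library, 7 of its 32285 genes, and were picked with their levels by cell class and by tissue piece already known. Those levels are therefore a description of these nuclei, with no test. The study set mice heterozygous for Prph2 C213Y, a missense allele of the disc rim protein peripherin 2, on the C57BL/6J background against wild-type mice matched for age and sex, with spatial transcriptomes at 6 months. The deposited libraries, for expression and for spatial barcodes, are both named T1 and carry neither a genotype nor a replicate number. They come, per the labels, from untreated mice and from 1 fresh-frozen retinal section of 10 micrometres from 1 eye. No genotype was inferred and none was compared.

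Fibroblast growth factors are secreted proteins that bind heparan sulfate and a receptor tyrosine kinase, which then signals through the MAP kinase cascade and switches on its own inhibitors, among them the Sprouty and dual-specificity phosphatase genes. In the rodent retina FGF2 is known as a survival factor of photoreceptors, and its messenger RNA is known to rise there after light damage, injury or inherited degeneration. Stressed photoreceptors are also known to make endothelin 2, and Müller glia, the supporting glia of the retina, then turn on Gfap.

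After filtering, 16867 of 17285 barcodes were kept, with a median of 1811 unique molecular identifiers (UMIs, 1 per captured RNA molecule) and 1042 genes per nucleus. Clustering gave 38 clusters, of which 32 fell into 17 classes by marker genes and 6, with 1505 nuclei, stayed unnamed. Of 12 rod markers, 11 were highest in the rod-like class, and the lens-like, melanocyte-like, ganglion cell-like, cone-like and adipocyte-like classes each led on 12 of 12 of theirs. Only 6 of 12 Müller markers were highest in the Müller glia-like class. Although the sample is labelled retina, the classes include lens, skeletal muscle, adipocyte, melanocyte and surface epithelium. The nuclei lay in 4 separate tissue pieces along the X axis of the chip, numbered here from low to high X, with 4457, 4145, 3695 and 4570 kept nuclei. The labels name 1 section of 1 eye, and the pieces were not alike in sex-linked RNA. Xist, the RNA of the inactive X chromosome, had 86.5, 85.8, 90.3 and 762 CPM (its UMIs over all UMIs of those nuclei, scaled to a common total) in rod-like nuclei of pieces 1 to 4, and the Y-linked Uty had 114, 122, 110 and 31.7 CPM. Piece 4 stands apart from the others in both, so the 4 pieces go against a single eye, and the animal behind each was not given in the sources used here. Pieces are neither groups nor replicates, and their values are given side by side.

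The deposited feature identifiers and RefSeq's annotation of GRCm38.p6 place Fgf2 (ENSMUSG00000037225) at chr3:37348477-37410106 on the plus strand and Fgf2os (ENSMUSG00000054779), a long noncoding RNA gene, at chr3:37330257-37349841 on the minus strand. Their spans overlap by 1365 bases, and the starts in RefSeq's promoter table lie 1188 bases apart and face each other across that overlap. The 250 bases before each start are shown because these genes share a locus and, as given below, had the same order of pieces in rod-like nuclei to within counting error. Both are written 5′ to 3′ on the gene's own strand, from RefSeq's GRCm38.p6, with the GC box GGGCGG in capitals; the window of Fgf2 is chr3:37348403-37348652 and that of Fgf2os is chr3:37349842-37350091, inside the body of Fgf2. The start of Fgf2 in the promoter table lies inside the span given above, so part of its window, with the GC box, is inside that span too.
Fgf2: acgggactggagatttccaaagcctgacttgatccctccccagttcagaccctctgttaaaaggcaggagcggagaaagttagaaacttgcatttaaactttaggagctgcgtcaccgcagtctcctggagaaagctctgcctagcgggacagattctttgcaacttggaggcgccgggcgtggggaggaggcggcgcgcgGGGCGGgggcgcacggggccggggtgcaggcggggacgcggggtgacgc
Fgf2os: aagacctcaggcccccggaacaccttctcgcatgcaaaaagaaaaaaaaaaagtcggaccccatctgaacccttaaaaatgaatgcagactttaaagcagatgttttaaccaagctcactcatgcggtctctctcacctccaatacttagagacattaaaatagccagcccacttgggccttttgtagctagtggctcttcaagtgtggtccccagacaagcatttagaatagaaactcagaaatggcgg
The window of Fgf2 held 1 GC box, the letters that the Sp1 family of transcription factors binds, 49 bases before the start, and 62.4% of its bases were G or C. The window of Fgf2os held none and had 44.8% G or C. On either strand, a GC box was present in 10756 of 32851 promoter windows of that length (32.7%). The STAT motif TTCNNNGAA (in 7.02% of windows) and TAATCC, the core motif of the photoreceptor factors CRX and OTX2 (in 6.25%), were in neither window. A match or its absence describes these letters only. Fgf2 also overlaps Nudt6, another opposite-strand gene, by 5125 bases at its far end. Since no source used here gives the strand setting of the counting, reads from an overlap could have been counted to either gene.

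Pooled over the pieces, Fgf2 was highest in adipocyte-like and rod-like nuclei and close behind them in fibroblast-like nuclei. It was lower in cone-like nuclei, and at 32.9 CPM or less in the retinal neurons other than photoreceptors. A level here is the CPM pooled over all nuclei of the class, with its exact Poisson 95% interval, which covers counting error only. Fgf2 had 223 CPM in adipocyte-like nuclei (184 to 268), 214 CPM in rod-like nuclei (204 to 225) and 189 CPM in fibroblast-like nuclei (173 to 206). The intervals of adjacent classes in this order overlap. Müller glia-like nuclei followed at 111 CPM (95.6 to 128), myelinating glia-like nuclei at 106 CPM and cone-like nuclei at 98.0 CPM (84.4 to 113). Fibroblast-like nuclei stood above Müller glia-like nuclei, and cone-like above bipolar-like nuclei at 32.9 CPM, with no overlap of intervals. All other neighbours in the order overlap. The remaining classes lay between 20.8 CPM in vascular-like nuclei and 5.05 CPM, from 2 UMIs, in horizontal-like nuclei. This order is one of pooled levels and did not hold in each piece. Rod-like nuclei had 122, 356, 336 and 90.9 CPM in pieces 1 to 4. Adipocyte-like nuclei had 174, 150, 539 and 218 CPM, from 14, 16, 23 and 61 UMIs. With Fgf2 UMIs in 17.0% of rod-like nuclei (median 1061 UMIs per nucleus), the share was higher than the 4.60% of RPE-like nuclei (retinal pigment epithelium, median 2987 UMIs), although those nuclei were deeper.

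**Figure D1:**
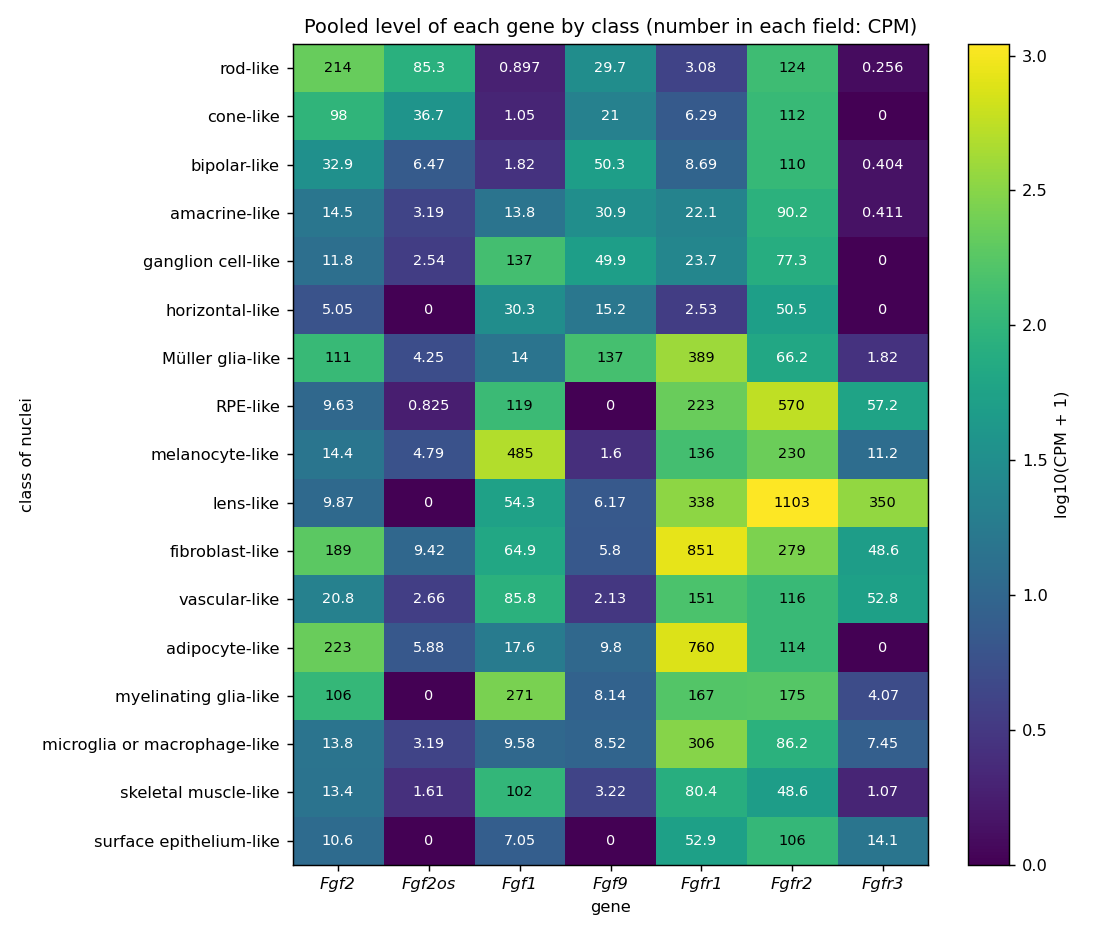
Level of each of the 7 genes (columns) in each of the 17 classes of nuclei (rows), with the CPM written in each field and the colour on a log10(CPM + 1) scale. Pooled over the pieces, Fgf2 and Fgf2os are both high in rod-like nuclei, while Fgfr2 and Fgfr3 are highest in lens-like nuclei and Fgfr1 in fibroblast-like and adipocyte-like nuclei.

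Free RNA from the many rods can enter other nuclei, so the summed level of 11 rod markers was set beside Fgf2. It was 19801 CPM in rod-like nuclei, 12410 CPM in cone-like nuclei, 1291 CPM in bipolar-like nuclei, 1275 CPM in RPE-like nuclei, 1244 CPM in adipocyte-like nuclei, 1123 CPM in fibroblast-like nuclei and 860 CPM in Müller glia-like nuclei. The cone-like class thus carried much RNA of rod markers, some of which cones also make, and its Fgf2 and Fgf2os levels are not read as expression by cones. In the adipocyte-like, fibroblast-like and Müller glia-like classes, rod markers were low beside the rod-like level while Fgf2 was near it or at 111 CPM. The part of free rod RNA in the level of each class was not tested.

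Fgf2os was highest in rod-like nuclei and low outside the photoreceptors. It had 85.3 CPM in rod-like nuclei (79.0 to 92.1) and 36.7 CPM in cone-like nuclei (28.6 to 46.3), a ratio of 2.33 with no overlap of intervals. The highest level elsewhere was 9.42 CPM in fibroblast-like nuclei (6.16 to 13.8) and bipolar-like nuclei had 6.47 CPM. Horizontal-like, lens-like, myelinating glia-like and surface epithelium-like nuclei had 0 UMIs. For each Fgf2 UMI, rod-like nuclei had 0.398 Fgf2os UMIs (666 to 1673), Müller glia-like nuclei 0.0383 (7 to 183), fibroblast-like nuclei 0.0498 (26 to 522) and adipocyte-like nuclei 0.0263 (3 to 114). The ratio was thus low in these 3 classes. It was 0.374 in cone-like nuclei (70 to 187), and it lay in between at 0.196 in bipolar-like nuclei (32 to 163), 0.220 in amacrine-like nuclei (31 to 141) and 0.214 in ganglion cell-like nuclei (9 to 42). These ratios pool unlike pieces. Rod-like nuclei of pieces 1 to 4 had 48, 312, 256 and 50 Fgf2os UMIs beside 235, 690, 533 and 215 Fgf2 UMIs. Their ratio was thus lower in pieces 1 and 4 than in pieces 2 and 3. Cone-like nuclei had 0, 54, 16 and 0 Fgf2os UMIs beside 8, 106, 57 and 16 Fgf2 UMIs. Nudt6 was low in every class, at 14.99 CPM in rod-like nuclei and at most 19.6 CPM in adipocyte-like nuclei.

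Fgf1, the ligand that binds all FGF receptors, was a gene of pigment cells, glia of myelin and ganglion cells, and was close to 0 in photoreceptors. Its gene (ENSMUSG00000036585) lies at chr18:38838672-38929470. Melanocyte-like nuclei had 485 CPM (432 to 543) and myelinating glia-like nuclei 271 CPM (227 to 321). Ganglion cell-like nuclei had 137 CPM (125 to 149), RPE-like nuclei 119 CPM (108 to 131) and skeletal muscle-like nuclei 102 CPM. The first 3 of these classes are set apart by non-overlapping intervals down to the ganglion cell-like level, and all neighbours further down overlap with the next. Rod-like nuclei had 0.897 CPM (7 UMIs in 5475 nuclei), cone-like nuclei 1.05 CPM and bipolar-like nuclei 1.82 CPM. In these pooled levels, Fgf1 and Fgf2 were therefore high in different classes of the retina, Fgf1 in ganglion cell-like and RPE-like nuclei and Fgf2 in rod-like and Müller glia-like nuclei.

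Fgf9, a ligand whose product is known in mice for its part in the boundary between neural retina and RPE during eye development, was highest in Müller glia-like nuclei. Its gene (ENSMUSG00000021974) lies at chr14:58070671-58112854. The level was 137 CPM in Müller glia-like nuclei (120 to 156), with Fgf9 UMIs in 29.0% of them (median 2973 UMIs). Bipolar-like nuclei had 50.3 CPM and ganglion cell-like nuclei 49.9 CPM, which overlap, and amacrine-like nuclei 30.9 CPM and rod-like nuclei 29.7 CPM, which also overlap. Cone-like nuclei had 21.0 CPM. RPE-like nuclei had 0 UMIs in 652 nuclei, which allows a level of up to 0.825 CPM.

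Fgfr1, the receptor gene (ENSMUSG00000031565) at chr8:25518759-25575718, was high in connective tissue, Müller glia and lens and almost missing from retinal neurons. It had 851 CPM in fibroblast-like nuclei (816 to 886) and 760.3 CPM in adipocyte-like nuclei (686 to 840), which overlap. Müller glia-like nuclei had 389 CPM (359.7 to 421) and lens-like nuclei 338 CPM (299 to 380), which overlap, followed by microglia or macrophage-like nuclei at 306 CPM and RPE-like nuclei at 223 CPM. Among neurons, amacrine-like nuclei had 22.1 CPM and nuclei like ganglion cells 23.7 CPM, the highest of these. Rod-like nuclei had 3.08 CPM (1.97 to 4.58), from 24 UMIs in 5475 nuclei. The rod-like nuclei, with high Fgf2, thus had little Fgfr1, and the Müller glia-like nuclei had both.

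Fgfr2 (ENSMUSG00000030849, at chr7:130162451-130266808) was the receptor gene with the widest spread, present in every class. Lens-like nuclei had 1103 CPM and RPE-like nuclei 570.2 CPM (546 to 595), each apart from the class below it. Rod-like nuclei had 124 CPM (116 to 132), cone-like nuclei 112 CPM (97.6 to 128) and bipolar-like nuclei 109.7 CPM (101 to 119), in an order whose neighbours overlap. Müller glia-like nuclei had 66.2 CPM (54.3 to 79.8). In the RPE-like class and in the photoreceptors, Fgfr2 was above its Müller level, whereas Fgfr1 in Müller glia-like nuclei was above its own level in those classes.

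Fgfr3 (ENSMUSG00000054252, at chr5:33721724-33737068), the third of the receptor genes, was a gene of the lens. It had 350.3 CPM in lens-like nuclei (311 to 393), in 48.1% of them, and 57.2 CPM in RPE-like nuclei (49.7 to 65.5), a ratio of 6.12. Vascular-like nuclei had 52.8 CPM and fibroblast-like nuclei 48.6 CPM, both with intervals that overlap that of the class above. Rod-like nuclei had 0.256 CPM from 2 UMIs, and cone-like, ganglion cell-like, horizontal-like and adipocyte-like nuclei had none. Lens-like nuclei thus had the highest level of both Fgfr2 and Fgfr3.

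The class-high call required that the interval in the leading class began at 2 times or more the end of the interval in each other class with 50 nuclei or more. By this rule 2 of the 7 members were called, Fgf9 in Müller glia-like and Fgfr3 in lens-like nuclei, beside 11.2% of the 18396 genes measured (at least 20 UMIs). Since the members were picked with their class levels known, nothing is read from that count.

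In the rod-like class, Fgf2 and Fgf2os differed across the pieces of tissue. Fgf2 had 122, 356, 336 and 90.9 CPM in rod-like nuclei of pieces 1 to 4 (235, 690.0, 533 and 215 UMIs). Pieces 2 and 3 overlap with each other and lie above pieces 1 and 4, and the highest over the lowest was 3.92 (3.36 to 4.59). Fgf2os had 25.01, 161, 162 and 21.1 CPM (48, 312, 256 and 50 UMIs), again high in pieces 2 and 3, with a ratio of 7.64 (5.63 to 10.6). The ratio of Fgf2os, of piece 3 over piece 4, was larger than that of Fgf2, of piece 2 over piece 4. Their intervals do not overlap, but they do not cover the choice of pieces. The other members measured in rod-like nuclei did not follow. Fgfr2 had 108, 134, 121 and 130 CPM, with a ratio of 1.23 (1.02 to 1.49). Fgf9 had 30.7, 31.0, 27.8 and 29.2 CPM, with a ratio of 1.12 (0.744 to 1.69). Fgfr1 had 7, 8, 6 and 3 UMIs, too few to order the pieces.

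**Figure D2:**
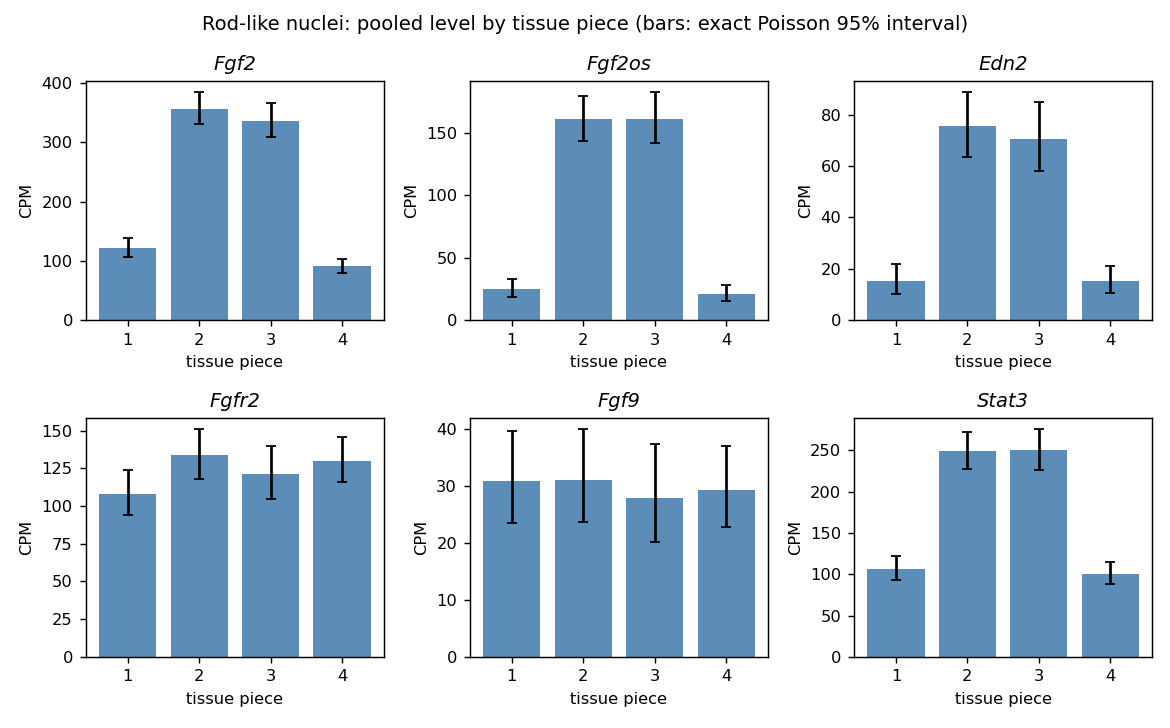
Level (CPM, linear axis from 0) of 6 genes in rod-like nuclei of tissue pieces 1 to 4, with exact Poisson 95% intervals that cover counting error only. Fgf2, Fgf2os, Edn2 and Stat3 are high in pieces 2 and 3, whereas Fgfr2 and Fgf9 lie near 1 level in all pieces.

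The call between pieces required that the interval in the highest piece began at 2 times or more the end of the interval in the lowest piece. In rod-like nuclei this called Fgf2 and Fgf2os, 2 of the 5 members measured there, beside 0.654% of the 11159 genes measured, and nothing is read from that count because the members were picked with these values known. Depth and RNA composition moved in part with the pieces. The median UMIs per rod-like nucleus were 938, 1188.5, 1197 and 1010, and the share of UMIs from Gm42418, a gene that overlaps ribosomal RNA, was 2.64, 2.25, 1.78 and 2.13%. The median mitochondrial share was 0.0915, 0.0813, 0.0830 and 0.0778%. The part of RNA composition in the result was not tested. With each nucleus thinned to 500 UMIs, which left out 70, 35, 37 and 70 shallower nuclei, 4.08, 13.8, 13.3 and 3.49% of rod-like nuclei had an Fgf2 UMI, with pieces 2 and 3 again high, and without thinning 9.26, 28.6, 25.9 and 9.29%. For Fgf2os the thinned shares were 0.915, 6.36, 5.26 and 1.01%, and the unthinned ones 2.15, 15.5, 15.7 and 2.55%.

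More rod-like nuclei had Fgf2 in pieces 2 and 3 than in pieces 1 and 4, yet most nuclei there had none. Those with an Fgf2 UMI numbered 138, 369, 271 and 153 in pieces 1 to 4, and those with at least 2 numbered 46, 159, 119 and 44. Rod-like nuclei with at least 3 Fgf2 UMIs numbered 23, 74, 59 and 13 of 1491, 1292, 1045 and 1647, which is 1.54, 5.73, 5.65 and 0.789%. The most in 1 nucleus was 12, 11, 16 and 6 UMIs. Fgf2 and Fgf2os also met in the same nuclei. Among rod-like nuclei with Fgf2, 10.9, 30.9, 33.6 and 9.15% had Fgf2os, against 1.26, 9.32, 9.43 and 1.87% of those without it. The nuclei with Fgf2 were deeper, with medians of 1415.5, 1442, 1536 and 1513 UMIs against 916, 1084, 1081.5 and 977.5 UMIs. The part of depth in this meeting was not tested, nor was that of reads from the overlap of the 2 genes.

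**Figure D3:**
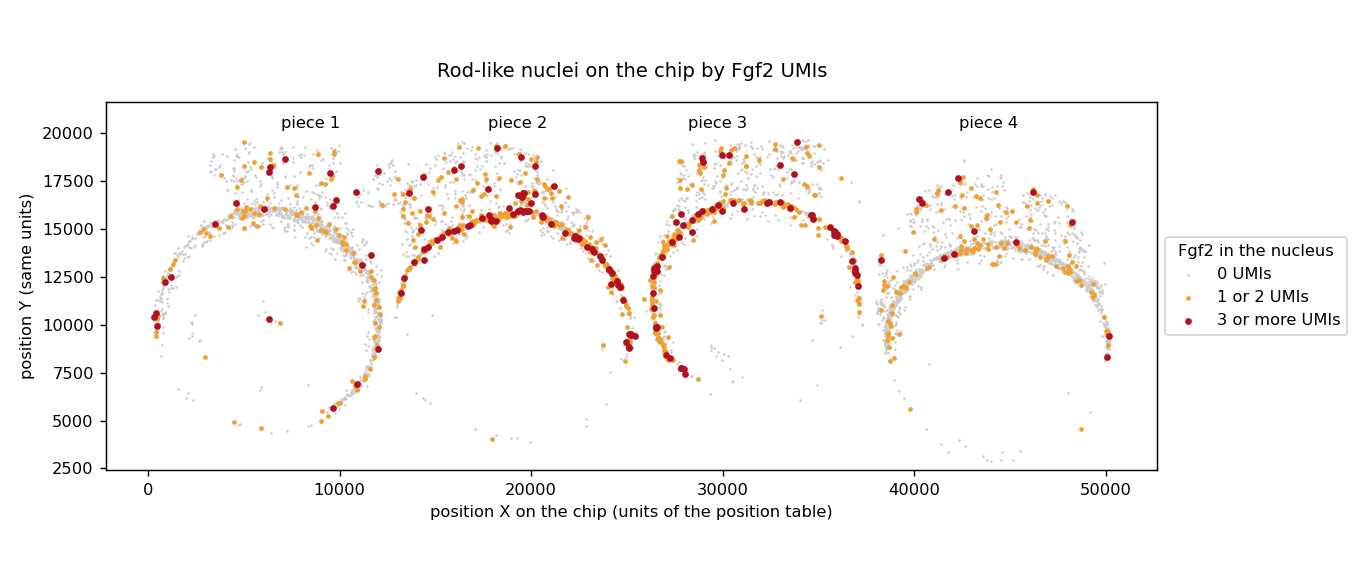
Position of every rod-like nucleus on the chip (both axes in the units of the deposited position table, whose length is not given), coloured by its Fgf2 UMIs. Nuclei with Fgf2 UMIs lie along most of the arc of rods in pieces 2 and 3, where 74 and 59 nuclei had at least 3 UMIs, and are sparser in pieces 1 and 4, with 23 and 13.

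The rod-like class was made of 4 clusters, and in each of them Fgf2 was higher in pieces 2 and 3 than in pieces 1 and 4, with overlap of intervals between pieces 2 and 4 in the smallest. In the largest, Fgf2 had 132, 353, 334 and 71.3 CPM in pieces 1 to 4, in the next 77.4, 283, 192 and 84.0 CPM, in another 157, 414, 391 and 108 CPM, and in the smallest 112, 287, 422 and 150.3 CPM. The cluster with 157 to 414 CPM made up 18.5, 28.3, 26.2 and 21.1% of rod-like nuclei, and it had Fgf2os among the 10 genes that set it apart, although Fgf2os was left out of the clustering. The arc of rods was also divided into sectors by angle. Over sectors of at least 100 rod-like nuclei, Fgf2 ran from 90.6 to 247 CPM over 7 sectors of piece 1 and from 206 to 424 CPM over 6 of piece 2. It ran from 269.7 to 451 CPM over 6 sectors of piece 3 and from 60.8 to 176 CPM over 6 of piece 4. The lowest sector of piece 3 was above the highest of pieces 1 and 4, while the lowest of piece 2 was above the highest of piece 4 but not of piece 1. The intervals of these extremes overlap. They were 208 to 344 CPM for the lowest of piece 3 and 150 to 277 CPM for that of piece 2. For the highest of pieces 1 and 4 they were 173 to 343 CPM and 124 to 242 CPM. Fgf2os in these sectors ran from 0 to 55.0 CPM, 89.0 to 218 CPM, 84.3 to 251 CPM and 8.69 to 52.3 CPM in pieces 1 to 4. Every such sector of pieces 2 and 3 was thus above every such sector of pieces 1 and 4, but the closest of them rested on 20 and 8 UMIs.

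The distance of rod-like nuclei to the nearest RPE-like nucleus gave no common direction. With the nuclei of each piece in 4 bands of equal number from nearest to farthest, Fgf2 had 118, 102, 85.9 and 189 CPM in piece 1 and 52.6, 92.3, 93.9 and 119 CPM in piece 4, with the farthest band highest in both. In piece 2 the bands had 359, 406, 412 and 213 CPM, with the farthest lowest, and in piece 3 they had 408, 314, 317 and 291 CPM, with the nearest highest. Another split, not exactly that of the bands, took the rod-like nuclei nearer to the RPE and was chosen after the data had been seen. In it, the highest over the lowest piece was 5.09 for Fgf2 and 23.8 for Fgf2os.

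Outside the rod-like class, Fgf2 differed between pieces in cone-like and bipolar-like nuclei by the rule of 2 times between interval bounds. Müller glia-like nuclei had 107, 116, 133 and 81.1 CPM in pieces 1 to 4, with a highest over lowest ratio of 1.64 (0.984 to 2.81). Fibroblast-like nuclei had 167, 176, 146 and 237 CPM, with the highest level in piece 4. Adipocyte-like nuclei, 30, 53, 25 and 153 in pieces 1 to 4, had 174, 150, 539 and 218 CPM. Their ratio was 3.60 (1.82 to 7.29), without a call. Cone-like nuclei had 24.3, 152, 129 and 36.2 CPM and were called between pieces beside 0.776% of genes measured there. Pieces 2 and 3 were high in them, as in rod-like nuclei, and the summed level of the 11 rod markers in cone-like nuclei was 10889, 13161, 11858 and 12908 CPM in pieces 1 to 4. Fgf2os in cone-like nuclei had 0, 54, 16 and 0 UMIs. Bipolar-like nuclei had 20.4, 32.5, 70.0 and 8.86 CPM, with a ratio of 7.91 (4.101 to 17.1), and were called beside 0.286% of genes. The rod markers summed to 930, 1209, 1845 and 1233 CPM in bipolar-like nuclei of pieces 1 to 4, highest in piece 3 as Fgf2 was. The part of rod RNA in these differences was not tested. No member was called between pieces in Müller glia-like nuclei (5 measured, 0.366% of all genes called).

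**Figure D4:**
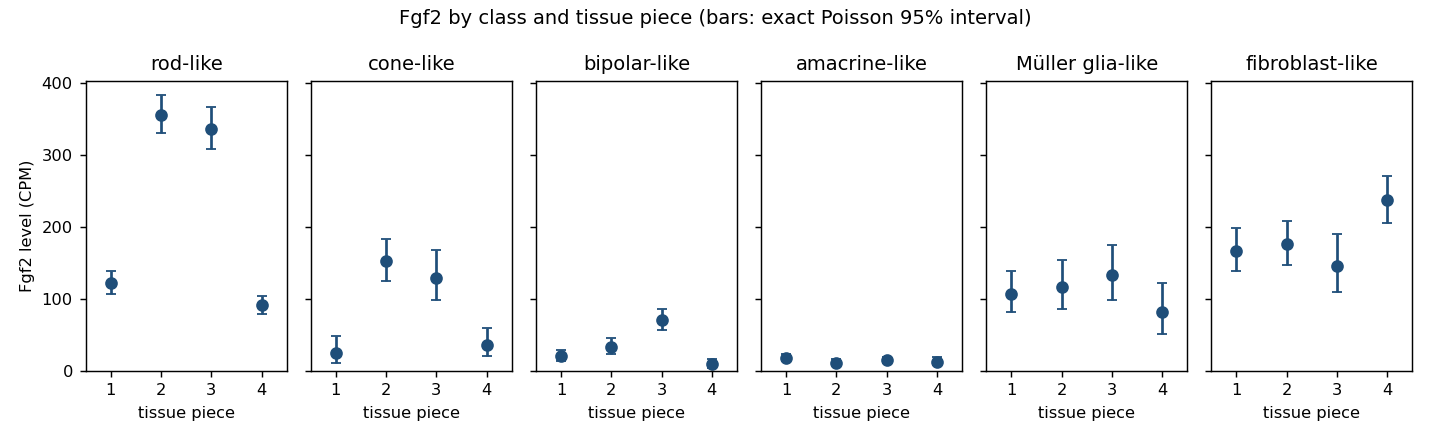
Fgf2 level (CPM, linear axis from 0) in 6 classes by tissue piece, as points with exact Poisson 95% intervals. Pieces 2 and 3 are high in rod-like and cone-like nuclei, while fibroblast-like nuclei are highest in piece 4, at 237 CPM.

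None of the other members was called between pieces in the class where it was highest. Fgfr1 had 363, 414, 420 and 363 CPM in Müller glia-like nuclei and 702, 864, 820 and 980 CPM in fibroblast-like nuclei. In adipocyte-like nuclei, its second-highest class, it had 397, 739, 585 and 899.7 CPM, with a ratio of 2.27 (1.57 to 3.39) and no call. Fgf9 had 116, 159, 146 and 134 CPM in Müller glia-like nuclei, and Fgfr2 had 512, 522, 649 and 578 CPM in RPE-like nuclei. In lens-like nuclei, of which pieces 2 and 4 held only 35 and 43, Fgfr2 had 1207, 1220 and 1114 CPM in pieces 1 to 3 and 749.8 CPM in piece 4, and Fgfr3 had 349, 344, 376 and 288 CPM. Fgf1 had 406, 439, 498 and 644 CPM in melanocyte-like nuclei, 117, 97.5, 136 and 119 CPM in RPE-like nuclei, and 190.1, 111, 133 and 107 CPM in ganglion cell-like nuclei. It varied more in myelinating glia-like nuclei, at 391, 287, 131 and 159 CPM, with a ratio of 2.99 (1.45 to 6.94), and in fibroblast-like nuclei, at 31.6, 50.7, 46.0 and 113 CPM, with a ratio of 3.59 (2.28 to 5.86), both without a call. Fgf1 was called in vascular-like nuclei, at 51.7, 31.7, 117 and 152 CPM, with a ratio of 4.80 (2.76 to 8.87), beside 1.66% of genes measured there. That class pools endothelial and mural markers, and its make-up by piece was not tested.

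The wider FGF list held 102 genes in 8 groups, of which 94 were measured and 10 were class-high, beside the 11.2% of all genes given above. Of the 18 secreted ligands 10 were measured and Fgf9 was class-high. Fgf10, which drives epithelial budding in mice, had 202 CPM in adipocyte-like and 145 CPM in fibroblast-like nuclei and was not called. Of the 4 intracellular FGF homologous factors, which act on sodium channels, none was called: Fgf12 had 1753 CPM in ganglion cell-like nuclei and 1644 CPM in horizontal-like nuclei, and Fgf13 had 913 CPM in Müller glia-like and 553 CPM in amacrine-like nuclei. Of the 7 receptors and co-receptors, Fgfr3 and Klb were called. Klb, beta-klotho, the co-receptor of the hormone FGF21, had 98.0 CPM in adipocyte-like nuclei and 0.607 CPM, from 1 UMI, in the next class. None of the 18 adaptors and MAP kinase genes was called.

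Of 18 genes listed as feedback inhibitors and targets, 3 were called class-high, beside 11.2% of the 18396 genes measured. Nothing is read from the count of this group or of those below. Dusp4, a phosphatase of MAP kinases, had 493 CPM in RPE-like nuclei and 149.7 CPM in bipolar-like nuclei. Dusp5, another of these phosphatases, had 233 CPM in surface epithelium-like and 43.4 CPM in bipolar-like nuclei. Spsb1, whose link to FGF signalling was not tested here, had 772 CPM in melanocyte-like and 311 CPM in fibroblast-like nuclei. Of 21 heparan sulfate proteoglycan genes, Hs6st3, a sulfotransferase of heparan sulfate, was called at 7299.9 CPM in horizontal-like nuclei and 983 CPM in amacrine-like nuclei. Of 14 genes of photoreceptor stress and glial reactivity, 3 were called. Ednrb, the endothelin receptor, had 913 CPM in melanocyte-like and 128 CPM in microglia or macrophage-like nuclei, and is also one of the melanocyte markers used here. Gfap, the intermediate filament of glia, had 167 CPM in myelinating glia-like and 48.6 CPM in Müller glia-like nuclei. Its UMIs in myelinating glia-like nuclei were 2, 67, 1 and 12 in pieces 1 to 4. An unnamed cluster of 82 nuclei, which the class-high rule leaves out, had Gfap first among its 10 leading genes. Cp, ceruloplasmin, had 1003 CPM in Müller glia-like and 319 CPM in lens-like nuclei.

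Between pieces, 4 of the 61 list genes measured in rod-like nuclei were called, beside the 0.654% of all genes. They were Fgf2, Fgf2os, Edn2 and Cebpd. As the list was chosen with earlier results of these data known, nothing is read from their number. Edn2, endothelin 2, had 15.1, 75.4, 70.7 and 15.2 CPM in pieces 1 to 4, with a ratio of 4.99 (3.33 to 7.72). Cebpd, a transcription factor of the acute response, had 2, 26, 18 and 4 UMIs, with a ratio of 12.9 (3.23 to 112). All of them were high in pieces 2 and 3 and low in pieces 1 and 4. In the order of the ratio between interval bounds, Fgf2os was 4th, Fgf2 17th, Edn2 23rd and Cebpd 50th of the 73 genes called. Of these 73 genes, 29 were highest in piece 2 and 31 in piece 3, against 4 in piece 1 and 9 in piece 4.

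**Figure D5:**
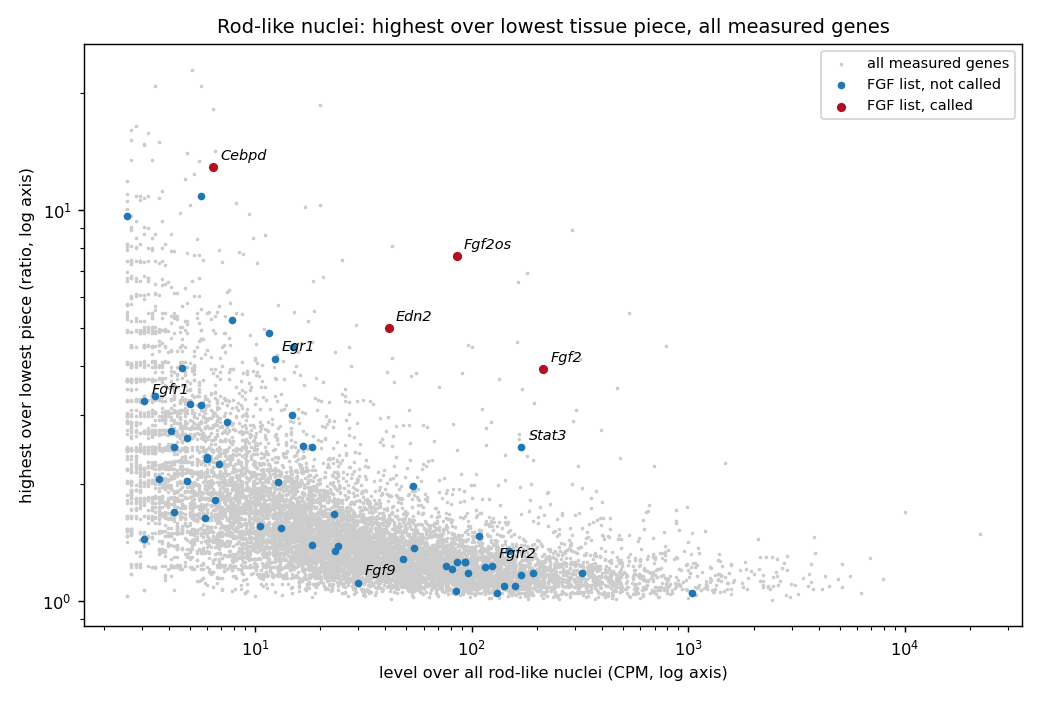
Ratio of the highest to the lowest tissue piece against the level over all rod-like nuclei (both log axes), for the genes measured in that class that had UMIs in every piece. The called list genes Fgf2, Fgf2os, Edn2 and Cebpd stand above most genes of their level, Stat3 lies just under the call, and Fgfr2 and Fgf9 lie among the bulk.

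Stat3, the transcription factor downstream of interleukin 6 family receptors, missed the call at 107, 249.5, 249.98 and 101 CPM in rod-like nuclei, with a ratio of 2.48 (2.11 to 2.93). It was called with at least 500 genes per nucleus and at clustering resolutions of 0.5 and 2. Bcl3, a partner of NF-kappa-B, had 2, 22, 15 and 5 UMIs and was called, of these 3 settings, with at least 500 genes per nucleus alone. None of the 9 feedback genes measured in rod-like nuclei was called. Spry2, a Sprouty inhibitor of receptor signalling, had 20.8, 8.27, 6.94 and 20.7 CPM, lower in pieces 2 and 3, and Egr1, an immediate early gene, had 8.34, 21.2, 17.0 and 5.07 CPM. With at least 500 genes per nucleus, Egr1 was called, as were Agrn and Hs6st3 of the heparan sulfate proteoglycan genes, and Agrn was also called at resolution 0.5. Nudt6 had 6.77, 17.6, 30.3 and 9.30 CPM and was called, of the same 3 settings, at resolution 0.5 alone.

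In Müller glia-like nuclei, 4 of 67 list genes measured were called, beside 0.366% of the 9005 genes measured there. The list was chosen with earlier results of these data known, so nothing is read from that count. A2m, a protease inhibitor, had 48.3, 252, 198 and 60.0 CPM, C4b, a complement component, had 76.9, 539.6, 490.1 and 116 CPM, and Gfap had 6, 42, 22 and 10 UMIs. These 3 were high in pieces 2 and 3. A2m and C4b were also called in RPE-like nuclei, where A2m had 324, 998.8, 1480.3 and 423 CPM and C4b 3.44, 50.7, 88.3 and 2.95 CPM, high in the same pieces. C4b was called in bipolar-like, amacrine-like, vascular-like, adipocyte-like and fibroblast-like nuclei too, and in fibroblast-like nuclei both genes were highest in piece 4 and lowest in piece 3. Hs6st3 had 12.5, 14.3, 83.4 and 91.7 CPM, with another order. Osmr, the oncostatin M receptor, had 87.7, 202, 237 and 120 CPM and was not called, with a ratio of 2.71 (1.89 to 3.91). Etv5, a transcription factor induced by FGF signalling, had 168, 183, 136 and 162 CPM, with a ratio of 1.35 (0.938 to 1.96). Fos, an immediate early gene of the same list of feedback genes and targets, had 23.3, 88.0, 93.8 and 31.7 CPM. It was high in pieces 2 and 3, with a ratio of 4.04 (2.09 to 8.29) and no call. In other classes Etv5 did differ between pieces. It was called in lens-like nuclei, at 112, 224, 145 and 24.7 CPM, with a ratio of 9.08 (2.82 to 46.5). Skeletal muscle-like nuclei had 5.59, 85.5, 33.8 and 38.2 CPM of Etv5, also called, with a ratio of 15.3 (5.80 to 57.2). The ligand Fgf2 in rod-like nuclei and the reactivity genes A2m, C4b and Gfap in Müller glia-like nuclei were therefore high in the same pieces.

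The genes whose pattern was most like each member were taken by Pearson's r of log2(CPM + 10) over 62 combinations of class and piece, among 13567 genes. The combinations share 1 library and its depth, so r is a description. Fgf2os was most like Edn2 (r = 0.921), then the noncoding genes Gm48236 (0.862) and A930014E10Rik (0.826). Fgf2 was less closely matched, with Hibadh, an enzyme of valine breakdown, at 0.713, Prkd1, protein kinase D1, at 0.633 and Rassf8 at 0.622. Fgf9 was most like Olfm2, an olfactomedin (0.898), C130071C03Rik (0.880) and Fam168a (0.816). Fgf1 was most like Rapsn, which clusters acetylcholine receptors (0.767), Synpo (0.752) and Sox10, a transcription factor of neural crest and myelinating glia (0.745). Fgfr1 was most like the polarity gene Pard3b (0.862), Zcchc24 (0.854) and the Wnt pathway factor Tcf7l2 (0.853). Fgfr2 and Fgfr3 were each most like the other (0.836). Next came the basement membrane collagen gene Col4a4 (0.834) and the Wnt antagonist Sfrp1 (0.818) for Fgfr2, and Crim1 (0.829) and Sfrp1 (0.797) for Fgfr3.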

How the data were processed

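SeekSpace profiles single nuclei and keeps their place in the section. The deposited matrix holds raw UMI counts per gene and barcode, and the deposited position table holds coordinates in other, unnamed units. Per the submitters' processing notes, the build was mm10 and the tools were Seurat 4.1.1, STAR and fastp; roles, strand setting and handling of introns were not given in the sources used here. Features carry Ensembl identifiers and symbols, and all 7 members matched RefSeq's GRCm38.p6.

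Computation used matplotlib 3.10.9, igraph 0.11.9, scikit-learn 1.9.0, anndata 0.12.19, scanpy 1.11.5, scipy 1.17.1, pandas 2.3.3, numpy 2.4.6 and python 3.11.15. Nuclei needed at least 200 genes (328 barcodes had fewer) and under 10% mitochondrial UMIs (97 had more). Scrublet marked 0 nuclei, which allows up to 0.0178%, and is taken not to have worked, so doublets remain. Clusters came from 2000 variable genes, 30 components, 15 neighbours and Leiden resolution 1. The 20 FGF list genes that were variable and no markers were left out. A cluster was named when at least 3 markers of a class stood above their mean over clusters by a set margin. Several clusters could meet this for the same class. The best score of the cluster also had to be at least 0.7 and its second score at most 0.5 of the best. It stayed unnamed when its 10 leading genes held more markers of another class than of its own, a rule set after the clusters had been seen, which left out 83, 61, 44 and 82 nuclei of a cluster of rod markers in pieces 1 to 4. Unnamed nuclei were 9.00, 8.44, 9.82 and 8.56% of the pieces.

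Levels are CPM pooled over nuclei with exact Poisson 95% intervals, and shares have exact binomial (Clopper-Pearson) intervals in the tables; a count of 0 was given a limit of 3 counts. All cover counting error only. With 1 expression library and no replicates, no p-value was computed. Ratio intervals are exact for 2 counts set beforehand. The highest and lowest pieces were picked by their values, and the intervals do not cover that choice. Genes named are the members, the list genes called class-high or between pieces in rod-like or Müller glia-like nuclei, and 3 most alike genes per member with at least 200 UMIs; Fgf10, Fgf12, Fgf13, Nudt6, Stat3, Bcl3, Spry2, Egr1, Osmr, Fos, Agrn and Etv5 were named from the lists after their values were seen. The members, lists and alternatives were chosen with earlier results of these data known. Rod markers were summed over 11 of the 12 used for naming, a sum added after seeing the data; 1 marker is not reported here.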

Additional observations from a re-analysis of the deposited data

How the results depend on the processing

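No paired analysis was possible because neither library has a group and the pieces carry no replicate numbers. Of 136 values under alternatives, over 13 results, 108 stayed within the interval of the value reported (counts: within 1.5 times) and 28 moved. Fgf2 in rod-like nuclei, reported at 214 CPM, was 196 CPM thinned to 500 UMIs, 184 CPM as a mean over nuclei, and 244, 167, 183 and 268 CPM without piece 1, 2, 3 or 4, the direct result of fewer nuclei high or low in Fgf2. Its ratio of the highest to the lowest piece, 3.92, was 4.95 in rod-like cluster 1 alone and 5.09 in rod-like nuclei nearer to the RPE, both added after seeing the data. The 10 class-high list genes were 4 after thinning and 5 under a rule of 3 times, which call fewer by construction. The 4 list genes called between pieces in rod-like nuclei were 2 under the rule of 3 times (Fgf2 and Fgf2os), 7 at resolution 0.5 and 10 with at least 500 genes per nucleus. Those last settings placed 5708 and 5036 nuclei in the rod-like class, against 5475, and called 0.706 and 0.888% of all genes. Both kept Fgf2, Fgf2os, Edn2 and Cebpd and added Stat3 and Agrn, among others, and resolution 2 added Stat3; the cause was not tested. In rod-like nuclei, Fgfr1, Fgfr3 and Fgf1 had only 24, 2 and 7 UMIs, too few to order the pieces. 1 library without replicates gives no estimate of the spread between animals, and in pooled nuclei fewer cells with the RNA and less RNA per cell cannot be told apart.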
